A study of Homo sapiens with 2 samples.

Results

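The genes that control plasmin and the start of blood clotting were followed in MRC-5 cells after knockdown of periostin. They are 9 of the 21743 genes that had a named probe on the array: the plasminogen activators PLAU and PLAT, the receptor PLAUR, the serpins SERPINE2 and SERPINB2, tissue factor F3, its inhibitors TFPI and TFPI2, and thrombomodulin THBD. They were taken by name, and every probe was used whose RefSeq accession in the scanner files belonged to one of them, which gave 11 probes. MRC-5 cells are fibroblasts of human fetal lung, kept as an established line. The study asked which transcripts of these cells depend on periostin, a secreted matrix protein. RNA of 1 culture transfected with control siRNA and of 1 culture transfected with periostin siRNA was labelled with Cy3 and hybridised to 1 single-colour Agilent array each. A dose of 10 nM and a time of 48 h are stated for the periostin siRNA, and the description of the arrays gives neither for the control siRNA, which other experiments of the study used at the same dose.

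Plasminogen is cut to plasmin, a protease of fibrin and matrix proteins, by urokinase (PLAU) and tissue plasminogen activator (PLAT). Urokinase works at the cell surface when it is held by its receptor, and serpins trap the activators by forming covalent complexes with them. Clotting starts when tissue factor binds factor VII, is slowed by the Kunitz-type inhibitor TFPI, and is turned off in part by thrombomodulin, which changes the specificity of thrombin towards protein C.

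With 1 array per condition, the precision is limited by the number of arrays, no difference could be tested and no p-value is given. Signals are background-subtracted fluorescence, scaled so that the 75th percentile of the spots was equal on both arrays. Ratios are log2 of periostin siRNA over control siRNA, and a gene is called lower or higher only past 3-fold, the size of change the study used. The error is the SD between spots for a probe printed 10 times, or, for a probe printed once, the error propagated by the scanner software. Neither includes the spread between cultures. In RNA of a whole culture, fewer cells with a transcript and less of it per cell cannot be told apart.

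POSTN, the targeted gene, was 2638 with control siRNA and fell to 279.7 with periostin siRNA (log2 ratio -3.24 ± 0.20). Of the spots, 58.0% with control siRNA and 58.9% with periostin siRNA were well above background. All 12 fibroblast markers, such as COL1A2 and VIM, were well above background on both arrays, and their summed signal was 366320 and 331821. Of the 10 endothelial markers, 6 with control siRNA and 5 with periostin siRNA were well above background, CDH5 (49.5 and 46.5) and VWF (72.1 and 79.8) among them, while PECAM1, EMCN, TIE1 and ERG were not on either array. Their summed signal was 5653 and 5359, nearly all of it from TEK. THBD is also known from endothelium. Signals of some epithelial and mesothelial markers differed between the arrays. The sum of 10 epithelial markers reached 308 with control siRNA and 609 with periostin siRNA, with EPCAM at 34.6 and 135 while CDH1, SFTPB, NKX2-1, GRHL2 and TP63 were not well above background. The sum of 7 mesothelial markers was 151 and 453, with CALB2 at 80.7 and 346 and BNC1 at 3.28, not well above background, and 35.2, at least 4.66-fold higher, while MSLN, LRRN4, KRT5 and ITLN1 were not well above background on either array. Of the 6 macrophage markers with a probe, 3 were well above background on each array, LAPTM5, CD163 and MARCO were not, and the sum was 200 and 219. Whether cells of these other types were in the cultures, or had any part in the values below, was not tested.

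All 9 genes gave a lower signal with periostin siRNA in their brightest probe, though not in the second probe of TFPI, and 3 of them were lower by more than 3-fold, namely PLAU, SERPINB2 and THBD. None was more than 3-fold higher. Among the 16052 genes with a ratio, 2.75% were more than 3-fold lower and 3.37% were more than 3-fold higher. The 9 genes were chosen with earlier results of these data known, so nothing is read from their share against this background. Their median log2 ratio was -0.91, against 0.06 over all genes, of which 45.5% were below 0. THBD and SERPINB2 had the largest differences, PLAU and PLAT came next, and F3, TFPI and TFPI2 were closest to no difference.

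**Figure D1:**
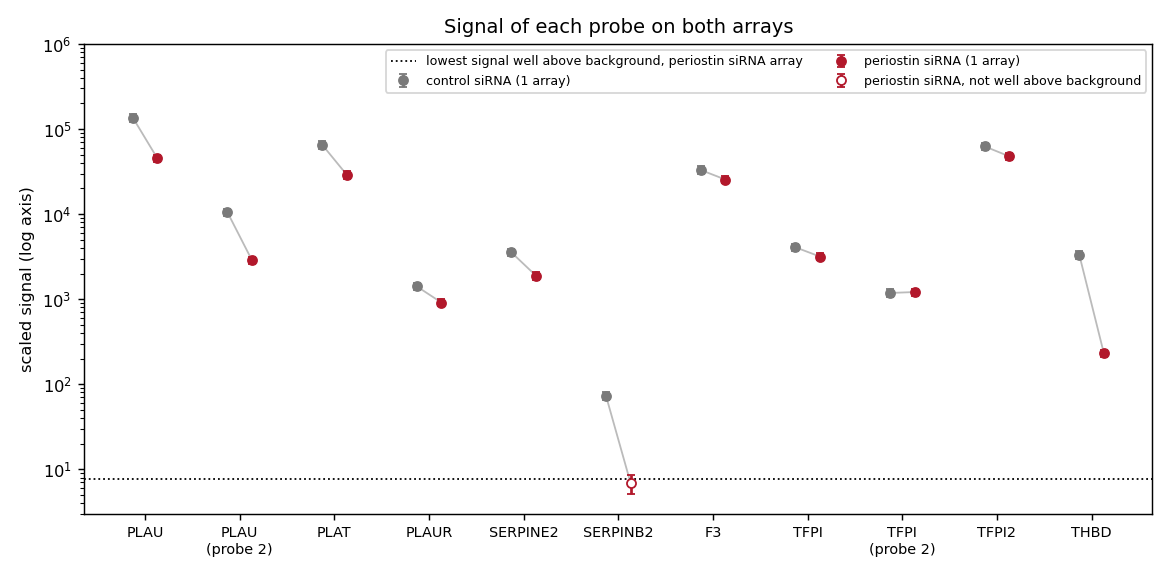
Scaled signal of the 11 probes (log axis) with control siRNA (grey) and periostin siRNA (red), 1 array each. Bars are the errors propagated by the scanner software, the open circle is a spot that was not well above background, and the dotted line is the faintest signal well above background with periostin siRNA. THBD went from 3321 to 230 and SERPINB2 from 72.7 to 6.85, below the dotted line.

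The main probe of each plasminogen activator was printed at 10 spots, so the spread between spots could be given for these genes. PLAU encodes urokinase. Its probe for NM_002658 gave 129698 to 142712 with control siRNA (median 135498) and 42794 to 46455.6 with periostin siRNA (median 45491). The spots of the arrays did not overlap, and the spread within each was small beside the gap. Spots of 1 array per condition do not show the spread between cultures. Spots differed little in general, with a pooled SD of 0.12 over 667 probes that had 10 spots well above background on both arrays. How many of these probes had spots without overlap was not counted, so nothing about PLAU is read from its lack of overlap. The mean signal was 136231 and 45169.5, a log2 ratio of -1.59 ± 0.03 (SD, n = 10 spots), or 3.02-fold lower. The value stood so close to the threshold that 7 of the 10 spots were past it and 3 were not. A second probe, for NM_001145031, had 1 spot and gave 10500 and 2851, with a log2 ratio of -1.88 ± 0.20. It differed from the main probe by -0.29. The combined error of 0.21 joined an SD between spots with a propagated error, which are unlike measures, so nothing is read from the difference. Both probes placed PLAU past 3-fold. In order of size, PLAU was number 436 from the lowest of the 16052 genes.

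Entries of the RefSeq promoter table (GRCh38.p14) were used for 7 of the 9 genes, and the 250 bases before each start were searched on both strands. PLAT and THBD had no entry among those used. Entries on the chromosome of PLAT were left out for the 9 genes, but kept in the shares over all promoters. The AP-1 letters were TGAGTCA or TGAATCA, with any base in the middle once both strands are read. The GC box was searched as GGGCGG and the TATA box as TATAAA. The letters for TEAD factors were GGAATG. The E-box was CACGTG. A match is a description of the letters in this window, not a bound site. PLAU is shown because its ratio passed 3-fold, and it had 2 starts, chr10:73910360-73910609 and chr10:73910882-73911131, both on the plus strand. They differ in composition, with 46.8% and 68.8% G and C, and the second held 3 GC boxes while the first held none of the motifs. The probes were not paired with the starts. In all sequences printed, capitals mark an AP-1 match, of which PLAU had none.
PLAU start 1: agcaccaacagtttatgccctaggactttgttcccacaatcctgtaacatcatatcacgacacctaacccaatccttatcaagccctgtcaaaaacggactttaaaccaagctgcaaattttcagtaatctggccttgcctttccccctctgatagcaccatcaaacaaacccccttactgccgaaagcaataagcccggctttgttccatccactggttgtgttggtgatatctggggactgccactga
PLAU start 2: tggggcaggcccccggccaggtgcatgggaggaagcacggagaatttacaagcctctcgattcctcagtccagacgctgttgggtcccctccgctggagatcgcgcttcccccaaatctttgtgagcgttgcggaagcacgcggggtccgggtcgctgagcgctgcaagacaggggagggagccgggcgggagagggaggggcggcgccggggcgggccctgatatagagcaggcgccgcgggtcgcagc

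PLAT encodes tissue plasminogen activator, which cuts plasminogen mainly on the surface of fibrin. Its 10 spots (NM_000930) gave 63043.5 to 68991 with control siRNA (median 64879) and 25832 to 30723 with periostin siRNA (median 29103). Again no spot of one array overlapped the spots of the other, and nothing is read from this, since spots differed little in general. The mean signal was 65588 and 29042, a log2 ratio of -1.18 ± 0.05 (SD, n = 10 spots), which is 2.26-fold and did not pass the threshold at any spot. The spot ratios ran from -1.30 to -1.13 for PLAT and from -1.63 to -1.53 for PLAU.

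**Figure D2:**
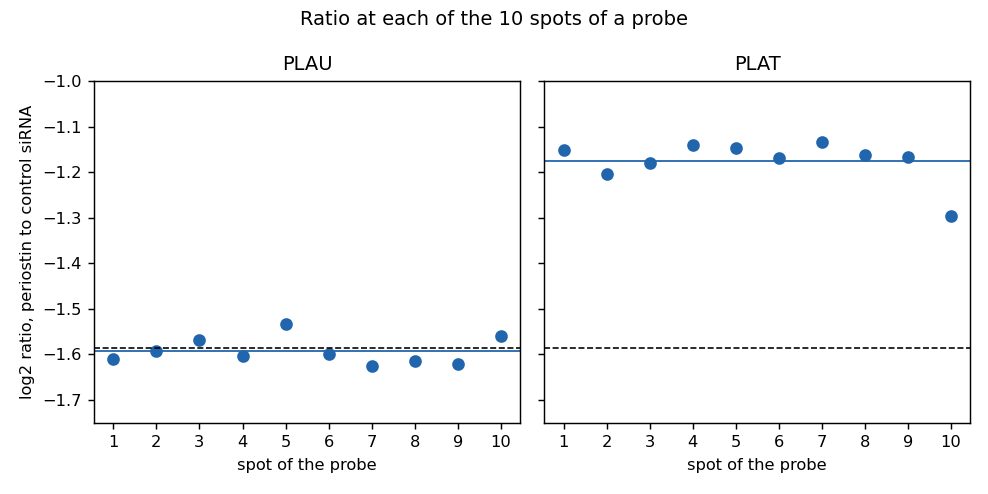
Log2 ratio, periostin siRNA over control siRNA, at each of the 10 spots of the PLAU and PLAT probes, with a line for the mean and a dashed line for 3-fold. PLAU scattered around the 3-fold line from -1.63 to -1.53, and all PLAT spots lay above it, from -1.30 to -1.13.

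PLAUR, the membrane-anchored receptor that holds urokinase at the cell surface, had 1 spot (NM_001005377). It gave 1413 with control siRNA and 913 with periostin siRNA, for a log2 ratio of -0.63 ± 0.20, or 1.55-fold. The difference was larger than its propagated error but well short of 3-fold. The promoter of PLAUR, chr19:43670170-43670419 on the minus strand, held an AP-1 match that began 186 bases before the start, and it is shown for comparison with the other genes that had one.
PLAUR: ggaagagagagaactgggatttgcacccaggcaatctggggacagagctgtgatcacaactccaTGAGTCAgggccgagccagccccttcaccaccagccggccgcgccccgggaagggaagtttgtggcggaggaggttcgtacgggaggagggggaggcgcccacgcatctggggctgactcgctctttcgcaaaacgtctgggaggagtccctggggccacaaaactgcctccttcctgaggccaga

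The serpins of the group were SERPINE2 and SERPINB2, and they differed in ratio. SERPINE2, or protease nexin 1, traps thrombin, urokinase and tissue plasminogen activator at the cell surface. It gave 3548 with control siRNA and 1884 with periostin siRNA (NM_006216, 1 spot), a log2 ratio of -0.91 ± 0.20, or 1.88-fold, which did not pass the threshold. Its 2 starts held GC boxes, and one of them held the single E-box found in the group.

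SERPINB2, or plasminogen activator inhibitor 2, is an inhibitor of urokinase that is found mostly inside the cell. Its single spot (NM_002575) gave 72.7 with control siRNA and 6.85 with periostin siRNA, where it was not well above background. The median pixel of the spot was 113 against a local background of 23 with control siRNA, and 39 against 22.5 with periostin siRNA. Such a probe gives only a bound. The bright array was compared with either the dim probe's own signal or the faintest signal that was well above background on the dim array, whichever was higher. By that bound SERPINB2 was at least 9.36-fold lower with periostin siRNA, for a log2 ratio of -3.23 or less. This and the other bounds hold only for the background subtraction used here and are not a sure minimum of the change. The size of the call rests on how dim signals were treated. With normexp, a model of signal plus background, and an offset of 50 added on both arrays, the log2 ratio was -1.08. It did not pass 3-fold there, and the background model and the offset were not tested apart. Its promoter, chr18:63887455-63887704 on the plus strand, is shown because the gene passed 3-fold. It was poor in G and C, at 37.2%, and held an AP-1 match 102 bases before the start and a TATA box.
SERPINB2: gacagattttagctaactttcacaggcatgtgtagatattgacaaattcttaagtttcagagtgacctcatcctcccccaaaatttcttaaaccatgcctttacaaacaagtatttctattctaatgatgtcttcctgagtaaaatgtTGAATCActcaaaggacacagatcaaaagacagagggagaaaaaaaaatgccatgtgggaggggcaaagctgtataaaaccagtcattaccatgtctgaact

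THBD had the lowest ratio of the group. Thrombomodulin is an integral membrane protein that binds thrombin and turns it from a clotting protease into an activator of protein C. Its spot (NM_000361) gave 3321 with control siRNA and 230 with periostin siRNA, well above background on both arrays. The signal with periostin siRNA was 6.94% of that with control siRNA, a log2 ratio of -3.85 ± 0.20, or 14.4-fold lower. THBD was number 38 from the lowest of the 16052 genes, ahead of POSTN itself at number 73.

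Tissue factor and its inhibitors were well above background on both arrays and showed small differences, none past 3-fold. F3, the membrane receptor of factor VII, gave 33005 with control siRNA and 25493 with periostin siRNA (NM_001993), a log2 ratio of -0.37 ± 0.20. TFPI2, a Kunitz-type inhibitor of plasmin and other matrix-degrading proteases as well as of the tissue factor complex, gave 62538 and 47749 (NM_006528), a log2 ratio of -0.39 ± 0.20. Both differences were less than 2 times the propagated error. TFPI, the main inhibitor of the tissue factor and factor VII complex, had a pair of probes that did not share a direction. The brighter probe (NM_006287) gave 4073 and 3168, a log2 ratio of -0.36 ± 0.20. The other (NM_001032281) gave 1182 and 1213, a log2 ratio of 0.04 ± 0.20, and the probes differed by 0.40 with a combined error of 0.29. The accessions name different transcripts of TFPI, and no direction is given for the gene.

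The promoters of F3 and TFPI2 are shown because both held AP-1 matches. That of F3, chr1:94541760-94542009 on the minus strand, had 78% G and C, AP-1 matches that began 223 and 210 bases before the start, 4 GC boxes and a TATA box. That of TFPI2, chr7:93890754-93891003 on the minus strand, had 64.4% G and C, an AP-1 match 87 bases before the start and 2 GC boxes. No AP-1 match overlapped a match of another motif.
F3: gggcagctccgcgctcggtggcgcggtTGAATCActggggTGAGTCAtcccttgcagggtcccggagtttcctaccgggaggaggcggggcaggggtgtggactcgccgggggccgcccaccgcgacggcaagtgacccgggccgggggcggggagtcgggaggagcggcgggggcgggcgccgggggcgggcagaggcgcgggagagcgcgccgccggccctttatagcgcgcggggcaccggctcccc
TFPI2: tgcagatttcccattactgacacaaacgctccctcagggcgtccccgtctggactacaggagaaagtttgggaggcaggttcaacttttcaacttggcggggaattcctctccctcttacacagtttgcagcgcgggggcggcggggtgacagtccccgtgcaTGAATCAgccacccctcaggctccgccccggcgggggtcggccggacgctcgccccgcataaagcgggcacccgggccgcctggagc

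Of the 7 genes whose entries were used, PLAUR, SERPINB2, F3 and TFPI2 held an AP-1 match. The same letters were in 6.57% of the 35116 promoters of the table. Ratios in these 4 genes ran from -3.23 to -0.37, so genes with a match were among both the largest and the smallest differences. PLAU, past 3-fold, had none. Counted by start, as the table is, 4 of the 9 starts held an AP-1 match. GC boxes were in 5 of the 9 starts and in 42.6% of all promoters, TATA boxes in 2 starts and in 10.7%, and the E-box in 1 start and in 6.34%. The TEAD letters were in none of the 9 starts and in 11.9% of all promoters. TFPI held none of the motifs.

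**Figure D3:**
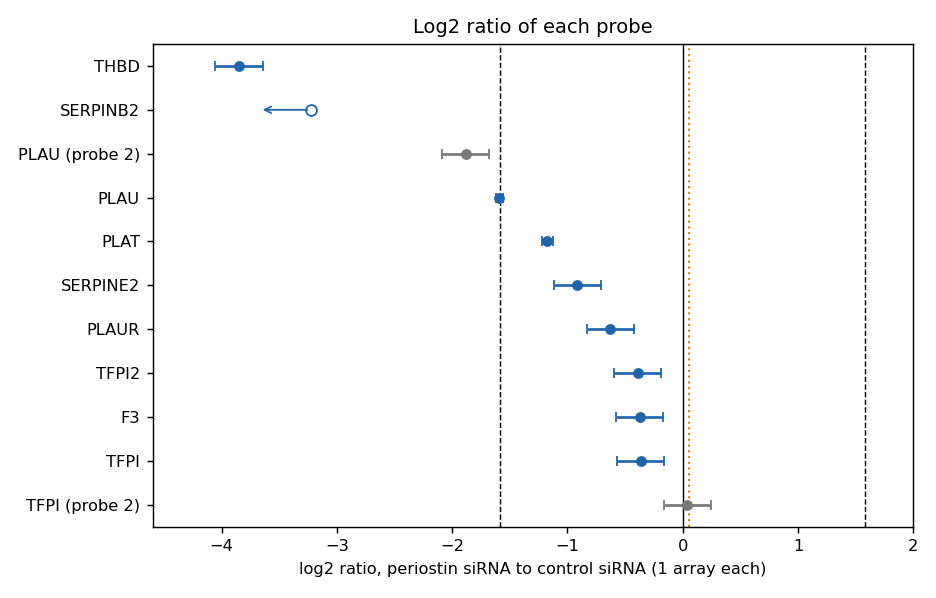
Log2 ratio, periostin siRNA over control siRNA, for each probe, with its error as a bar and dashed lines at 3-fold in each direction. Blue is the brightest probe, grey a second probe, the dotted line the median of all genes at 0.06, and the open symbol with an arrow the bound of SERPINB2 at -3.23. THBD lay at -3.85, both PLAU probes passed the 3-fold line, and the second TFPI probe lay at 0.04.

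The genes next to the 9 on the chromosome were set beside them, and this was chosen after the values of the group were known. Of the 18 flanking protein-coding genes, 12 had a ratio, with a median of 0.09. The ratios of CADM4, SERPINB7, CALCRL and CALCR among them were bounds. None of the 12 was lower by more than 3-fold, beside 2.75% of all genes, and nothing is read from so few genes. SERPINB7, which lies beside SERPINB2 in the chromosome 18 cluster of serpin genes, was the one that was higher. It gave 8.80 with control siRNA, not well above background, and 34.0 with periostin siRNA, for a log2 ratio of at least 1.95, so these neighbours differed in opposite directions. The neighbours of THBD, SSTR4 and CD93, were not well above background on either array, and those of PLAU, CAMK2G and VCL, had log2 ratios of -0.08 and 0.55.

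Other genes of plasminogen activation were divided. Of the 16 reported here that bind, inhibit or clear its components, 11 had a ratio and 5, PLG and SERPINF2 among them, were not well above background on either array. Among these, 0 were lower and 1 was higher past 3-fold, and 7 of the 11 were below 0, with a median log2 ratio of -0.18. SERPINI1, neuroserpin, an inhibitor of tissue plasminogen activator, was the one past 3-fold, at 46.5 with control siRNA and 160.5 with periostin siRNA, for a log2 ratio of 1.79 ± 0.21. The plasminogen receptor ENO1 gave 23410 and 13326, a log2 ratio of -0.81 ± 0.20, and LPA gave 25.4 and 15.7, a log2 ratio of -0.69 ± 0.28. The lipoprotein receptor VLDLR, which also takes up complexes of proteases and serpins, gave 105.7 and 72.4, a log2 ratio of -0.55 ± 0.21. The clearance receptor LRP1 and its chaperone LRPAP1 were on the other side of 0, with log2 ratios of 0.50 ± 0.07 and 0.91 ± 0.20, and neither passed the threshold. Their other probes had ratios of 0.20 for LRP1 and 1.16 for LRPAP1. Under normexp with the offset of 50, none of the 11 genes passed 3-fold in either direction.

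The wider set of coagulation genes was mixed in direction. Of 33 such genes, 22 had a ratio, 15 of them above 0 and 7 below, with a median of 0.22. Over all genes, the median was 0.06 and 45.5% were below 0, while 2.75% were lower and 3.37% higher by more than 3-fold. Nothing is read from the counts of any of the lists against these shares. The fibrinogen genes FGA, FGB and FGG and prothrombin, F2, were among the 11 not well above background on either array. F2RL1, a protease-activated receptor that is cut by trypsin-like proteases and by the tissue factor complex, was the only one past 3-fold, at 426 with control siRNA and 127 with periostin siRNA, for a log2 ratio of -1.74 ± 0.21. It did not pass under normexp. SERPIND1, heparin cofactor II, had a log2 ratio of -0.72 ± 0.28 and F12 of -0.61 ± 0.20. At the other end, ADAMTS13, which cuts von Willebrand factor, gave 307 and 842, F10 gave 741 and 1608, and F8 gave 29.8 and 54.9. Their log2 ratios of 1.46 ± 0.20, 1.12 ± 0.20 and 0.88 ± 0.23 did not pass 3-fold, and the other ADAMTS13 probe had a ratio of 0.28.

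Beyond SERPINE2 and SERPINB2, 14 of the 31 serpin genes reported here had a ratio, 7 below and 7 above 0, with a median of -0.027, which was 0.017 without scaling. Among these, 0 were lower and 3 were higher past 3-fold, namely SERPINB9, SERPINB7 and SERPINI1. SERPINB9, the inhibitor of granzyme B, gave 26.9 with control siRNA and 107 with periostin siRNA, for a log2 ratio of 1.99 ± 0.23. The C1 inhibitor SERPING1 gave 140 and 55.4, a log2 ratio of -1.34 ± 0.21, and SERPINB8 gave 273 and 147, a log2 ratio of -0.89 ± 0.20. The collagen chaperone SERPINH1 gave 31954 and 18966, a log2 ratio of -0.75 ± 0.20. SERPINA3, antichymotrypsin, gave 45.03 and 108, a log2 ratio of 1.27 ± 0.21, while its 3 probes ran from 0.69 to 1.68, the highest of them past 3-fold. The brightest probes of SERPING1, SERPINB8, SERPINH1 and SERPINA3 did not pass the threshold. Under normexp with the offset of 50, 0 of these serpins passed 3-fold lower and 0 higher. Some of these genes also stand in the lists above.

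**Figure D4:**
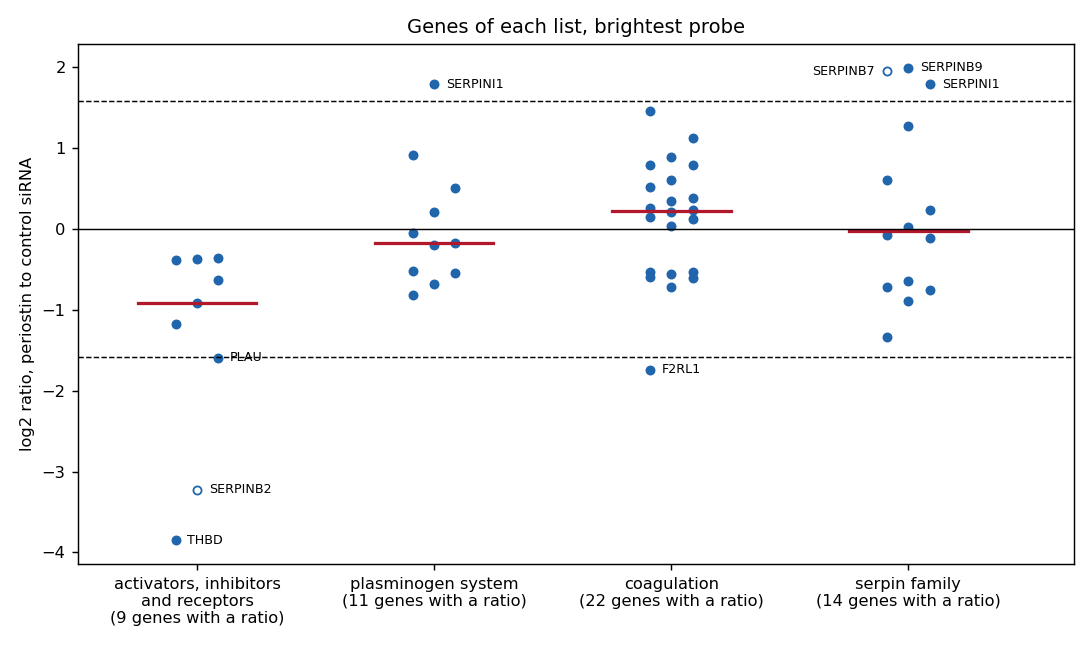
Log2 ratio, periostin siRNA over control siRNA, for each gene with a ratio, as dots, in the 9 genes and the 3 lists, with the median as a line, dashed lines at 3-fold, and bounds as open circles. The medians were -0.91, -0.18, 0.22 and -0.027, and genes past 3-fold are named.

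Under 10 other ways of treating the signals, the brightest probe of no gene of the group changed direction, with SERPINB2 left out of 1 of them that kept only genes well above background on both arrays. THBD passed 3-fold under all of them, with log2 ratios from -3.98 to -3.42. Some of these settings could not move THBD, which had 1 probe with 1 spot. They were the mean over probes, the median over spots, and leaving out flagged spots or dim genes, all at -3.85. The deposited normalized table gave -3.85 as well, so these settings are no test of THBD. PLAUR, SERPINE2, SERPINB2, F3 and TFPI2 also had 1 probe with 1 spot and no flag. PLAU passed under 7, with log2 ratios from -1.74 to -1.49, and fell short by a small margin without scaling, after quantile normalization and with the median over spots. PLAT stayed between -1.30 and -1.13, and TFPI between -0.49 and -0.16.

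**Figure D5:**
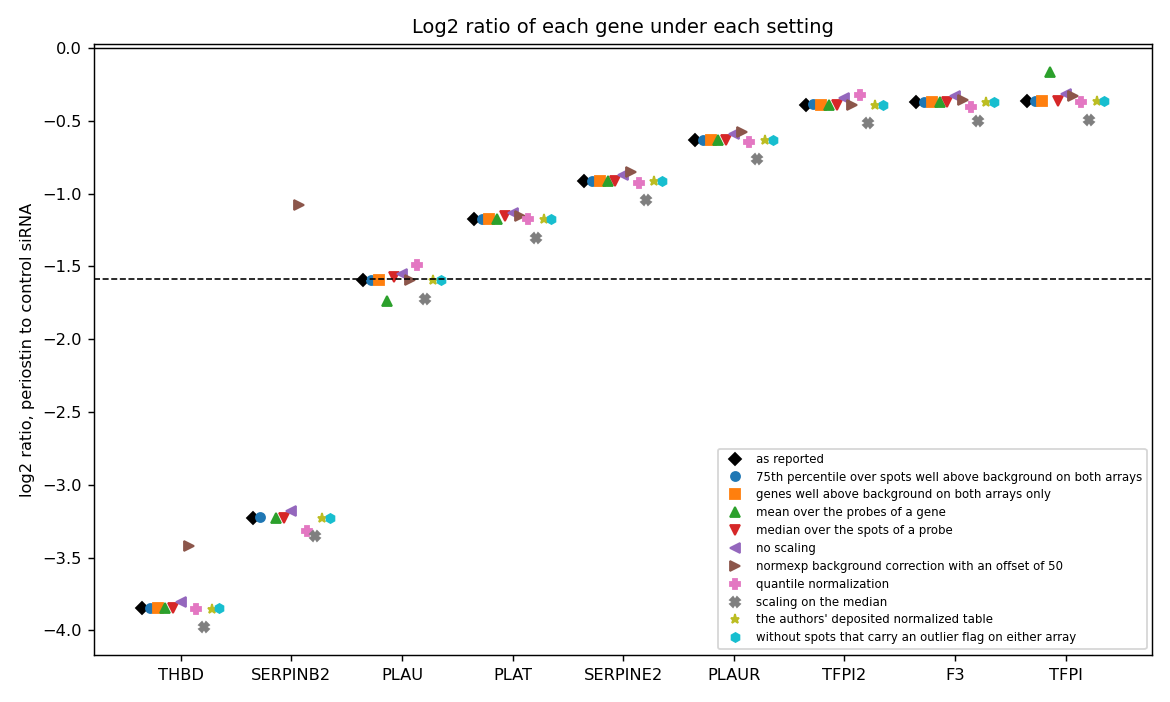
Log2 ratio, periostin siRNA over control siRNA, for each of the 9 genes under each setting, with a dashed line at 3-fold lower. THBD stayed between -3.98 and -3.42, PLAU crossed the line between -1.74 and -1.49, and SERPINB2 reached -1.08 under normexp.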

How the data were processed

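RNA of MRC-5 cells with control siRNA or periostin siRNA was hybridised to single-colour Agilent arrays, 1 for each condition. The deposited intensity values were, per the file headers, background-subtracted and detrended by Feature Extraction 11.5.1.1, while the labels name 12.0.3.1. A normalized intensity table was deposited too, whose normalization is not given in the sources used here, and it served as an alternative. Its ratios for the genes of the group were nearly the same as those reported.

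Control spots were left out, which gave 58717 spots for 50599 probes. Log2 intensity was scaled to the 75th percentile of each array, which was 372 and 383. Spots of a probe were averaged, and the brightest probe stood for a gene. RefSeq accessions (GRCh38.p14) named 38222 spots. Of 21743 genes, 16052 had a ratio, 1095 of them as a bound. Python 3.11.15 (numpy 2.4.6, pandas 2.3.3, matplotlib 3.10.9), R 4.3.3 and limma 3.58.1 were used. The scaling and gene ratios were tested on simulated data with known changes in bright genes only. The bounds of dim genes, normexp and the motif search were not tested in this way.

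The genes and lists were chosen with earlier results of these data known. Named were all 9 genes, POSTN and, from each list, the 3 lowest and 3 highest ratios among genes that both arrays measured well above background, and all past 3-fold. Marker genes and flanking genes are named besides. One gene of the lists is not reported here, and list counts and medians leave it out. Alternatives were 10 treatments of the signals, and thresholds of 2-fold and 4-fold for counts.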

Additional observations from a re-analysis of the deposited data

How the results depend on the processing

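Each condition had 1 array, so none could be left out in turn. No paired analysis was possible because there was a single array of each kind. No ratio of the 9 genes or of POSTN reversed, though settings on probes or spots could not move a gene with 1 probe and 1 spot. The count of the 9 genes lower by more than 3-fold, 3 as reported, was 2 under normexp (SERPINB2 lost), without scaling, after quantile normalization and with the median over spots (PLAU lost), with genes well above background on both arrays only (SERPINB2 left out) and at 4-fold, and it was 4 at 2-fold. With genes well above background on both arrays only, their median was -0.77. Over all genes with a ratio, 6.42% were lower at 2-fold, 1.71% at 4-fold, and 2.39% with genes well above background on both arrays only. The share lower by more than 3-fold was 1.19% under normexp, 2.59% without scaling, 2.96% after quantile normalization and 2.73% with the median over spots. Setting both arrays to the same median, in place of the 75th percentile, took the median over all genes from 0.06 to -0.07. This scaling moved the median of the 9 genes to -1.04, that of the plasminogen list to -0.30, of the coagulation list to 0.089 and of the serpin list to -0.15. Over all genes, it left 525 lower and 453 higher by more than 3-fold, against 441 and 541 as reported and 416 and 584 without scaling. Without scaling, the serpin median, -0.027 as reported, reversed to 0.017. Normexp left 190 lower and 143 higher, put POSTN at -2.99, and left 0 genes higher past 3-fold in the plasminogen and serpin lists and 0 lower in the coagulation list. The cause was not tested. SERPINB2 with periostin siRNA was not well above background, so its ratio is a bound.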
